A study of Mus musculus with 16 samples.

Results

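Chemokines that activated microglia make were followed as a set of 10 genes, Ccl2, Ccl3, Ccl4, Ccl6, Ccl7, Ccl9, Ccl12, Cxcl1, Cxcl2 and Cxcl16, taken by symbol from a table of 57010 genes. All 10 were in the table, and all 10 passed the filter on low counts. The table holds RNA-seq counts of olfactory bulb microglia, which were pulled from enzymatically digested tissue with magnetic beads against CD11b, an integrin that microglia share with monocytes, border macrophages and neutrophils. It covers 16 libraries from mice aged 2 months, with 4 libraries in each of 4 groups. The groups are wild-type females (WT_f), wild-type males (WT_m), knock-in females (KI_f) and knock-in males (KI_m). WT mice are C57BL/6J, and KI mice are APP-NL-G-F, a line in which the mouse App gene carries a humanised amyloid-beta sequence with the Swedish (NL), Arctic (G) and Beyreuther/Iberian (F) changes under its own promoter. The comparison between the genotypes asks how microglia of the olfactory bulb differ in the knock-in at this early age. The libraries are taken as separate animals, and p-values measure only the spread between them.

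Library totals ran from 9052932 to 18117286 counts, and 18227 genes were tested. Levels are given as CPM, counts scaled to the size of each library by TMM, a normalisation against differences in composition. All 14 listed microglia markers were tested, and none was called between the genotypes. Their summed level was 22700 to 26800 CPM in WT and 22700 to 26300 CPM in KI libraries. In this bulk RNA, fewer cells making a chemokine and less RNA per cell cannot be told apart. The RNA was taken after digestion and bead separation, and levels in the intact tissue were not measured.

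Chemokines are small secreted proteins that bind G protein-coupled receptors and guide the movement of leukocytes, and they fall into the CC and CXC classes by the spacing of their first cysteines. In the brain, microglia make several CC chemokines within hours of stimulation, and their transcription is known to be driven by NF-kB and AP-1 factors. Ccl3 and Ccl4 are macrophage inflammatory proteins that attract monocytes and T cells, Ccl2, Ccl7 and Ccl12 bind Ccr2 and attract monocytes, Ccl6 and Ccl9 bind Ccr1, Cxcl1 and Cxcl2 bind Cxcr2 and attract neutrophils, and Cxcl16 is a membrane-anchored ligand of Cxcr6.

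The genes lie in a few clusters of the GRCm39 mouse genome. On chromosome 11, the Ccr2 ligands Ccl2 (chr11:81926397-81928279, plus strand), Ccl7 (chr11:81936532-81938351, plus strand) and Ccl12 (chr11:81992645-81994466, plus strand) are separated by gaps of 8.3 and 54.3 kb. A further 1469.3 kb along are Ccl9 (chr11:83463745-83473161, minus strand), Ccl6 (chr11:83478708-83483913, minus strand), Ccl3 (chr11:83538670-83540191, minus strand) and Ccl4 (chr11:83553383-83555509, plus strand), with 13.2 kb between Ccl3 and Ccl4. Cxcl16 (chr11:70344517-70352620, minus strand) is apart from both clusters. On chromosome 5, Cxcl1 (chr5:91039094-91040974, plus strand) and Cxcl2 (chr5:91051730-91053797, plus strand) are 10.8 kb apart.

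Promoters were available in a RefSeq table for 6 of the 10 genes: Ccl3, Ccl6, Ccl9, Ccl12, Cxcl1 and Cxcl2. The 250 bases before the start are shown for 5 of them, on build GRCm38.p6 and in the direction of the gene. Cxcl1 (chr5:90890995-90891244, plus strand) and Cxcl2 (chr5:90903649-90903898, plus strand) are shown because they share a match. Ccl9 (chr11:83578637-83578886, minus strand) holds both motifs searched. Ccl3 (chr11:83649379-83649628, minus strand) is shown as the gene that fell most over both sexes, and Ccl6 (chr11:83593088-83593337, minus strand) as one that was not called. Capitals mark matches to an NF-kB motif (10 letters, overlapping matches joined) or to the AP-1 motif TGANTCA, both searched on either strand.
Cxcl1: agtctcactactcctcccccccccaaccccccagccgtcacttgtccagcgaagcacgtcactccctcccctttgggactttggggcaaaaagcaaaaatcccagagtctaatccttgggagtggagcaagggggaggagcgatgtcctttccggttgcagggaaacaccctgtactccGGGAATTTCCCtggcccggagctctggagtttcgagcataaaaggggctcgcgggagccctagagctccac
Cxcl2: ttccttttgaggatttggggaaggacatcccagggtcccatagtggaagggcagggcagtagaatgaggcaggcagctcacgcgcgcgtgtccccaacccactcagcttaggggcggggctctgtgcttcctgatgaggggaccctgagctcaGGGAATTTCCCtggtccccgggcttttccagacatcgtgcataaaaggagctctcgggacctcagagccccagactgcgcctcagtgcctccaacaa
Ccl9: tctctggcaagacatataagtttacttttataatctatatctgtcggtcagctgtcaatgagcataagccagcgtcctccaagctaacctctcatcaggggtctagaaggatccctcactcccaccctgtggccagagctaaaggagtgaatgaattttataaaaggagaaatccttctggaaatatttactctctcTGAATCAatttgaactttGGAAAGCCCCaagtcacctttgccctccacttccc
Ccl3: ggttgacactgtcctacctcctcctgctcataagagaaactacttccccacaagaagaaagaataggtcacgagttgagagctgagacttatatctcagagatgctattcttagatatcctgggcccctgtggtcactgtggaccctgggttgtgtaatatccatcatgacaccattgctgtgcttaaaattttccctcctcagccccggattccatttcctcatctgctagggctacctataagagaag
Ccl6: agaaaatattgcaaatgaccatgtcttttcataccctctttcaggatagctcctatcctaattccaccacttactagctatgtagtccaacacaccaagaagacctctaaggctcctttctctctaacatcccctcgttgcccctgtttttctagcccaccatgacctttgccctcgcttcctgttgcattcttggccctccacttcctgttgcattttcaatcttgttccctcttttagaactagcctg

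Cxcl1 and Cxcl2 both held GGGAATTTCCC, from 71 to 61 bases before the start in Cxcl1 and from 97 to 87 in Cxcl2. Those 11 letters were in 14 of 32841 promoters of the same length, or 0.0426%. Ccl9 held the NF-kB match GGAAAGCCCC and the AP-1 match TGAATCA. The NF-kB motif was in 7.25% of all promoters and the AP-1 motif in 6.75%. No match to either was in the windows of Ccl3, Ccl6 or Ccl12. These matches are letters in a window, and binding was not measured.

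Per kilobase of exon, Ccl3 and Ccl4 had by far the highest levels of the set. In WT libraries the level was 630 ± 146 CPM per kb for Ccl3 and 573 ± 156 for Ccl4 (SD between libraries, n = 8), with overlapping SD ranges. Ccl12 followed at 101 ± 29.8 CPM per kb and Ccl2 at 81 ± 19.4, whose SD ranges also overlapped. These genes were measured in the same libraries, and their differences within libraries were not tested. Ccl6 stood at 51.1 ± 5.43 CPM per kb and Ccl9 at 25.9 ± 2.65. Cxcl16 at 17.7 ± 2.64 and Ccl7 at 17.5 ± 5.96 CPM per kb were close to each other. The neutrophil attractants were lowest, with Cxcl2 at 7.74 ± 2.56 and Cxcl1 at 0.736 ± 0.148 CPM per kb. Cxcl1 rested on 5 to 26 counts per library, where a count of 0 would allow up to 3 counts (0.166 to 0.331 CPM, counting error only). In KI libraries Ccl4 (332 ± 136 CPM per kb) and Ccl3 (316 ± 138) were again highest.

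Over both sexes, 4 of the 10 chemokines were lower in KI microglia. They were Ccl3, Ccl4, Ccl2 and Cxcl1, with log2 fold changes of -0.98, -0.77, -0.69 and -0.93. A gene was called at a false discovery rate (FDR, the Benjamini-Hochberg adjusted p of edgeR's quasi-likelihood test over all genes, with sex as a term) below 0.1 and a log2 fold change of more than 0.5 in either direction. Of all tested genes, 4.3% were called lower. Of the 10 chemokines 9 had a fold change below 0, with a median log2 fold change of -0.54, where 50.4% of all genes were below 0 with a median of 0. Without a threshold on the fold change, Cxcl16 and Ccl9 passed as well, which made 6 of the 10 against 14.8% of all genes. Ccl6, Ccl7, Ccl12 and Cxcl2 did not pass. This list and the related lists below were chosen with earlier results of these data known. Several of the 10 genes also varied together across libraries. The shares are therefore a description, and no test was run over a list.

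**Figure D1:**
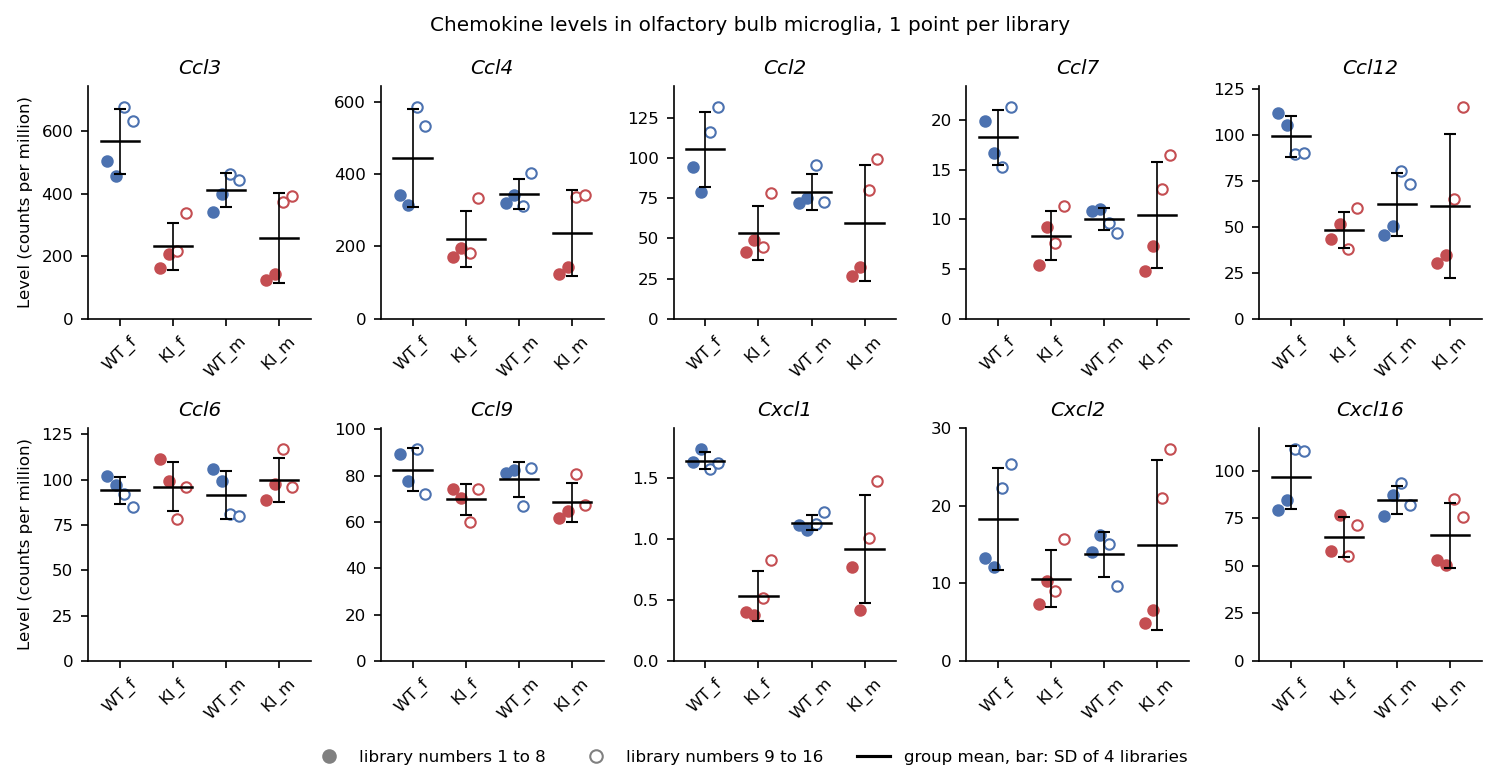
Level of each chemokine in CPM (vertical axes from 0, 1 panel per gene) in each of the 16 libraries, by group. Blue points are WT and red points KI libraries, filled for library numbers 1 to 8 and open for 9 to 16, with lines at group means and bars for the SD of 4 libraries. For Ccl3 the 4 KI_f libraries sit at 163.2 to 337.4 CPM and the 4 WT_f libraries at 455.4 to 676.8, while the KI_m libraries fall into a lower and a higher pair.

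Ccl3 (MIP-1 alpha) had levels of 505.4, 455.4, 676.8 and 631.3 CPM in the WT_f libraries and 341.3, 398.2, 462.5 and 442.9 CPM in WT_m. In KI_f it had 163.2, 208.1, 216.2 and 337.4 CPM, and in KI_m 124.5, 143.5, 374.4 and 391.7 CPM. The females did not overlap, whereas in males the higher 2 KI libraries lay within the WT range. All 8 KI libraries were below the WT median. Ccl3 was 1.98-fold lower in KI (log2 fold change -0.98, SE 0.222, FDR = 0.0093). An exact permutation test of log2 CPM, two-sided with genotype exchanged within sex, gave p = 0.00163, where the smallest possible p is 0.000408.

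Ccl4 (MIP-1 beta), the neighbour of Ccl3, had 340.9, 314.6, 584.5 and 532.5 CPM in WT_f and 318.7, 341.4, 311.3 and 403.1 CPM in WT_m. In KI_f it had 170.3, 195.9, 180.7 and 334.3 CPM, and in KI_m 123.7, 143.2, 336.8 and 341.9 CPM. Of the KI libraries, 1 KI_f library and 2 KI_m libraries reached the WT range, and the remaining 5 were below every WT library. Ccl4 fell by 0.77 on the log2 scale (SE 0.215, FDR = 0.0299, exact permutation p = 0.0106), with 7 of 8 KI libraries below the WT median.

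Among the Ccr2 ligands, Ccl2 (MCP-1) had 94.63, 79.19, 116.1 and 131.7 CPM in WT_f and 72.12, 74.92, 95.82 and 72.93 CPM in WT_m. The KI_f libraries held 41.48, 48.88, 44.52 and 78.06 CPM and the KI_m libraries 26.54, 32.35, 79.84 and 99.64 CPM. The females did not overlap and the males did. Ccl2 fell by 0.69 (log2, SE 0.229, FDR = 0.0646, exact permutation p = 0.0139). Its call was the least stable, since it was lost when any of 9 of the 16 libraries was left out, with an FDR of up to 0.135.

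Ccl7 (MCP-3) ran from 8.63 to 21.3 CPM in WT libraries (median 13.1) and from 4.85 to 16.5 CPM in KI (median 8.38). Ccl12 (MCP-5) ran from 45.4 to 112 CPM in WT (median 84.9) and from 30.6 to 115 CPM in KI (median 47.6). For both genes the ranges of the genotypes overlapped over both sexes. Ccl7 had a log2 fold change of -0.55 (FDR = 0.162) and Ccl12 of -0.53 (FDR = 0.193), and neither was called. Without KI_m replicate 4 both were called, with log2 fold changes of -0.74 for Ccl7 and -0.8 for Ccl12, and without KI_m replicate 3 Ccl7 was called.

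Cxcl1 (KC) had 1.626, 1.734, 1.571 and 1.623 CPM in WT_f and 1.114, 1.069, 1.121 and 1.219 CPM in WT_m. In KI_f it had 0.4014, 0.3731, 0.5167 and 0.8233 CPM and in KI_m 0.7655, 0.4137, 1.007 and 1.476 CPM. Every KI library except KI_m replicate 4 was below every WT library. Cxcl1 fell by 0.93 (log2, SE 0.27, FDR = 0.0378, exact permutation p = 0.00449). Cxcl2 (MIP-2), which shares the promoter match with Cxcl1, ran from 9.65 to 25.5 CPM in WT (median 14.5) and from 4.85 to 27.3 CPM in KI (median 9.67). The KI range of Cxcl2 thus enclosed that of WT, and its log2 fold change of -0.33 (SE 0.304, FDR = 0.561, exact permutation p = 0.196) was not called.

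Cxcl16 ran from 76.3 to 111 CPM in WT (median 85.9) and from 50.5 to 85.3 CPM in KI (median 64.6), with all 8 KI libraries below the WT median. Its log2 fold change of -0.46 (SE 0.112, FDR = 0.0139, exact permutation p = 0.00327) passed the FDR and not the fold threshold. Without KI_m replicate 3 the fold threshold was passed too (-0.52). Med11 and Zmynd15 overlap Cxcl16 on the opposite strand. Zmynd15 was called lower (-0.72, FDR = 0.0204, 29 to 127 counts per library) and Med11 had -0.2 (FDR = 0.0497). How the counting used strand is not given in the sources used here, so reads of overlapping genes could be shared.

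The Ccr1 ligands Ccl6 and Ccl9 were not called. Ccl6 (C10) ran from 80.1 to 106 CPM in WT (median 94.8) and from 78.2 to 117 CPM in KI (median 96.8), ranges that overlapped nearly in full, with a log2 fold change of 0.08 (SE 0.0777, FDR = 0.608). Ccl9 (MIP-1 gamma) ran from 66.9 to 91.4 CPM in WT (median 81.7) and from 60 to 80.8 CPM in KI (median 68.8), and all 8 KI libraries were below the WT median. Its log2 fold change of -0.22 (SE 0.0695, FDR = 0.0546, exact permutation p = 0.0147) was a small difference under the fold threshold. Ccl3 is overlapped on the opposite strand by the long noncoding RNA Gm53692, which had 78 to 259 counts per library and a log2 fold change of -0.59 (FDR = 0.00995). E230016K23Rik, which overlaps Ccl6 and Ccl9, had at most 5 counts.

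**Figure D2:**
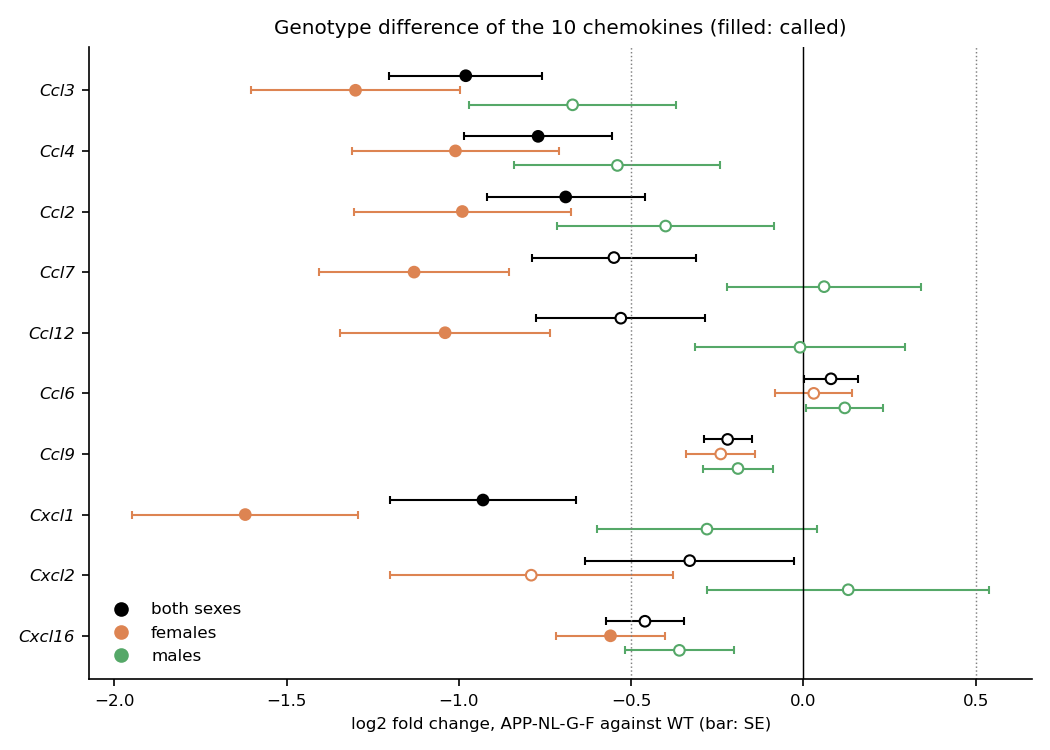
Log2 fold change of each chemokine, APP-NL-G-F against WT (horizontal axis, bars for the SE), over both sexes (black), in females (orange) and in males (green). Filled points were called and dotted lines mark the fold threshold of 0.5. In females 7 genes were called, from -0.56 for Cxcl16 to -1.62 for Cxcl1, and in males none was.

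Within females, 7 of the 10 chemokines were lower in KI_f than in WT_f, where 4.33% of all genes were called lower. Cxcl1 fell by 1.62 on the log2 scale (SE 0.328, FDR = 0.00662) and Ccl3 by 1.3 (SE 0.303, FDR = 0.0164). All 3 Ccr2 ligands were called: Ccl7 fell by 1.13 (FDR = 0.0214), Ccl12 by 1.04 (FDR = 0.0532) and Ccl2 by 0.99 (FDR = 0.0762). Ccl4 fell by 1.01 (FDR = 0.0566) and Cxcl16 by 0.56 (FDR = 0.0435). Cxcl2 had -0.79 (FDR = 0.289), Ccl9 -0.24 (FDR = 0.169) and Ccl6 0.03 (FDR = 0.912), and none of these 3 was called. The median log2 fold change of the 10 genes was -1.

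The levels behind these calls were apart in females for every gene but Ccl4, by gaps of unlike size. Ccl7 had 15.21 to 21.27 CPM in WT_f and 5.419 to 11.3 CPM in KI_f, and Ccl12 had 89.45 to 112.1 and 37.81 to 60.55 CPM. The gap was narrow for Ccl2, with 78.06 CPM in the highest KI_f and 79.19 CPM in the lowest WT_f library. It was also narrow for Cxcl16 (76.79 and 79.43 CPM). For 6 genes (Ccl2, Ccl3, Ccl7, Ccl12, Cxcl1 and Cxcl16) every KI_f library was below every WT_f library, a separation that 7.41% of all tested genes showed. Ccl4 overlapped through KI_f replicate 4 (334.3 CPM), which was the highest KI_f library of 7 of the 10 genes. Leaving out 1 library at a time left 3 to 7 genes called, and the calls of Ccl3, Ccl7 and Cxcl1 were kept in all 16 of these fits.

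In males none of the 10 genes was called by edgeR, where 0.165% of all genes were called lower. At an unadjusted p below 0.05 there were 2, Ccl3 (-0.67, SE 0.3, FDR = 0.404) and Cxcl16 (-0.36, SE 0.158, FDR = 0.391), against 11.7% of all genes. DESeq2 and limma voom called none either. Ccl4 had -0.54 (SE 0.299, FDR = 0.506) and Ccl2 -0.4 (SE 0.315, FDR = 0.654). Ccl7 (0.06, SE 0.281), Ccl12 (-0.01, SE 0.305) and Cxcl2 (0.13, SE 0.409) were near 0. For no gene were all 4 KI_m libraries below all 4 WT_m libraries, a separation that 3.18% of tested genes showed. The KI_m libraries were wide apart: replicates 1 and 2 held 4.848 and 6.619 CPM of Cxcl2, and replicates 3 and 4 held 21.07 and 27.33 CPM.

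The difference between the sexes was tested itself, as the genotype-by-sex interaction, and none of the 10 genes was called by edgeR, DESeq2 or limma voom. Of all genes, 0.0274% were called. All 10 interaction terms were below 0, with a median of -0.61 on the log2 scale, where 49.2% of all genes were below 0. These signs are not independent, since several of the genes varied together within groups (median r 0.81 over the 28 pairs without Ccl6 and Ccl9). At an unadjusted p below 0.05 there were 3 of the 10, against 5.94% of all genes. They were Ccl7 (-1.18, SE 0.393, FDR = 0.548), Cxcl1 (-1.34, SE 0.461, FDR = 0.588) and Ccl12 (-1.03, SE 0.43, FDR = 0.754). The larger fold changes in females are therefore not shown to differ from those in males.

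The sexes were also compared within WT, a comparison that shares the WT_f libraries with the one in females. All 10 genes had a fold change above 0 between WT_f and WT_m, with a median log2 fold change of 0.41, where 50.9% of all genes were below 0. Here too the signs are not independent, since several of the genes varied together within groups. None of the 10 was called by edgeR, DESeq2 or limma voom, where 0.839% of all genes were called higher in females. At an unadjusted p below 0.05 there were Ccl7 (0.86, SE 0.274, FDR = 0.208) and Ccl12 (0.68, SE 0.303, FDR = 0.421), 2 of the 10 against 11% of all genes. Ccl7 had 15.21 to 21.27 CPM in WT_f and 8.634 to 11.02 CPM in WT_m, without overlap.

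The library names carry numbers from 1 to 16, and libraries 1 to 8 and 9 to 16 each hold 2 libraries of each group. Libraries 1 to 8 are replicates 1 and 2 of every group, and libraries 9 to 16 are replicates 3 and 4. What the numbers stand for is not given in the sources used here. Since the chemokines split along this numbering, the fits were repeated with it, a choice made after the levels per library were seen. In libraries 9 to 16, over all groups, Ccl3 (0.7, FDR = 0.0232), Ccl4 (0.68, FDR = 0.0314) and Ccl2 (0.67, FDR = 0.0503) were called higher than in libraries 1 to 8, as were 0.614% of all genes. Cxcl2 had 0.78 (FDR = 0.117), Ccl9 -0.01 (FDR = 0.966) and Ccl6 -0.15 (FDR = 0.334).

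**Figure D3:**
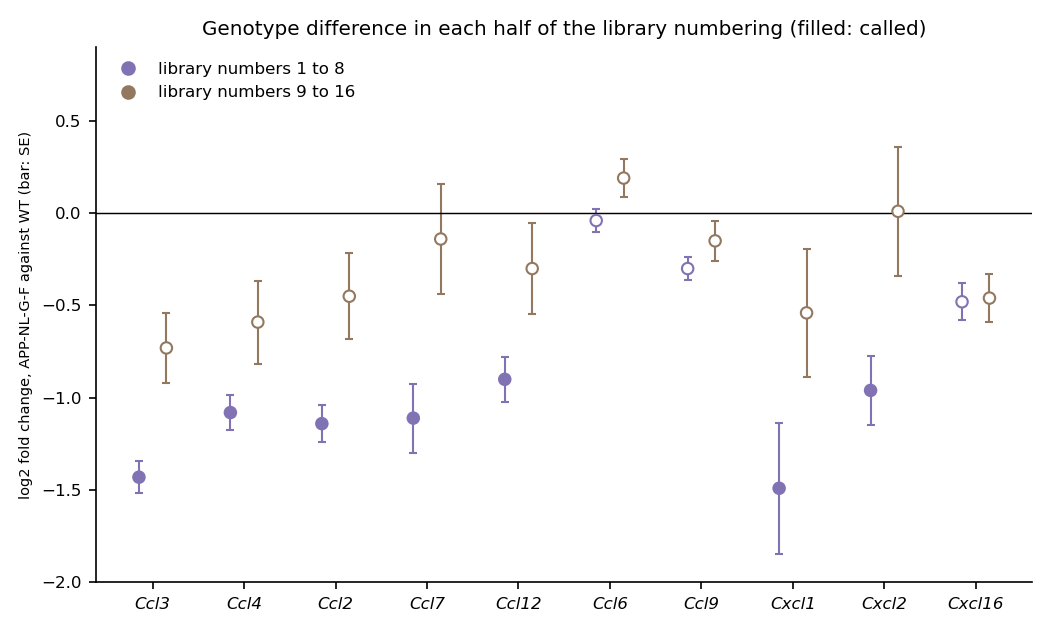
Log2 fold change of each chemokine, APP-NL-G-F against WT (vertical axis, bars for the SE), fitted in libraries 1 to 8 alone (purple) and in libraries 9 to 16 alone (brown), with sex as a term. Filled points were called. In libraries 1 to 8 there were 7 called genes, and in libraries 9 to 16 there were 0.

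The split of the libraries was chosen after their levels were seen, so SE and FDR values within each set are descriptive. In libraries 1 to 8 alone, 7 of the 10 chemokines were called lower in KI, as were 5.4% of all genes. Ccl3 had 341 to 505 CPM in WT and 125 to 208 CPM in KI libraries of this set, and fell by 1.43 on the log2 scale (SE 0.0868, FDR = 3.93e-06). Ccl2 fell by 1.14 (SE 0.0986), Ccl4 by 1.08 (SE 0.094), Ccl7 by 1.11 (SE 0.187), Ccl12 by 0.9 (SE 0.121), Cxcl1 by 1.49 (SE 0.356) and Cxcl2 by 0.96 (SE 0.189). Cxcl16 (-0.48) and Ccl9 (-0.3) passed the FDR alone, as did 19.9% of all genes. In libraries 9 to 16 alone none was called by edgeR, where 0.312% of all genes were called lower. Of those, Ccl3 (-0.73, SE 0.191, FDR = 0.197), Cxcl16 (-0.46, SE 0.132, FDR = 0.257) and Ccl4 (-0.59, SE 0.225, FDR = 0.47) had an unadjusted p below 0.05, as did 8.63% of all genes.

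Ccl3 was the only gene of the 10 whose KI libraries were all below the WT libraries both within libraries 1 to 8 and within 9 to 16, which 1.88% of all tested genes showed. The difference between the sets of libraries was tested as an interaction of genotype with the numbering, and 0% of all genes were called. At an unadjusted p below 0.05 there were 4 chemokines, Ccl3 (0.71, FDR = 0.587), Ccl7 (1, FDR = 0.601), Ccl2 (0.69, FDR = 0.612) and Cxcl2 (0.96, FDR = 0.62), against 8.02% of all genes. With the set (1 to 8 or 9 to 16) as an additive term, the same number of chemokines was called over both sexes and in females, and 1 was called in males (Ccl3). With genotype exchanged within sex and set, the exact permutation p of Ccl3 was 0.00154, the smallest that these arrangements allow.

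Across libraries of the same group, some of the chemokines varied together. Levels were centred on the 4 group means, and 45 pairs were correlated over the 16 libraries with permutations within groups. Ccl2 and Ccl3 had r = 0.97 (rho 0.95, permutation p = 0.00011, adjusted 0.0031), and r was 0.95 without the 2 libraries farthest from the median of Ccl2. Ccl2 and Cxcl2, which lie on different chromosomes, had r = 0.96 (rho 0.95, adjusted permutation p = 0.0031, 0.92 without 2 libraries). The neighbours Ccl3 and Ccl4 had r = 0.95 (rho 0.91, adjusted permutation p = 0.0058, 0.92 without 2 libraries). Of the 45 pairs, 12 had an adjusted permutation p of Pearson's r below 0.05, and 11 of these were among the 28 pairs without Ccl6 and Ccl9. Those 28 pairs had r from 0.48 to 0.97 (median 0.81). No pair of Ccl12 or Cxcl1 passed, the nearest being Ccl2 and Ccl12 (r = 0.82, adjusted permutation p = 0.055).

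**Figure D4:**
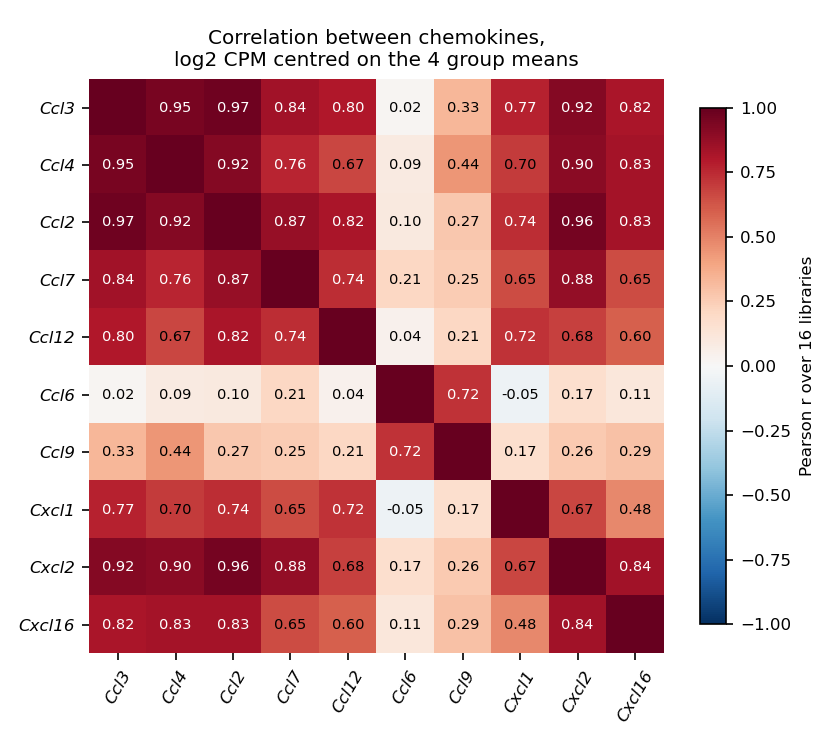
Pearson correlation of log2 CPM, centred on the 4 group means, between each pair of the 10 chemokines over 16 libraries, from blue (-1) to red (1). Ccl6 and Ccl9 correlate with each other (0.72) and only weakly with the other 8, from -0.05 to 0.44.

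Ccl6 and Ccl9, which lie 5.5 kb apart, passed with each other and with no other chemokine. They had r = 0.72 (rho 0.67, adjusted permutation p = 0.037), which dropped to 0.58 without the 2 libraries farthest from the median. With Ccl3, Ccl6 had r = 0.02 (adjusted permutation p = 0.95) and Ccl9 had 0.33 (adjusted permutation p = 0.48). The neighbours Cxcl1 and Cxcl2 had r = 0.67 (adjusted permutation p = 0.16), on few counts of Cxcl1. With levels centred on the set of libraries too, 0 of the 45 pairs had an adjusted permutation p below 0.05, and the median r of the 28 pairs without Ccl6 and Ccl9 was 0.61. Some correlations stayed close to their earlier value, with 0.95 for Ccl2 and Cxcl2, 0.83 for Ccl2 and Ccl12 and 0.73 for Ccl6 and Ccl9. Others dropped, from 0.92 to 0.63 for Ccl2 and Ccl4, from 0.9 to 0.51 for Ccl4 and Cxcl2, and from 0.77 to 0.21 for Ccl3 and Cxcl1. Cxcl1 and Cxcl2 dropped to 0.15. With 2 libraries in each group and set, the smallest p reached was 0.0079 before and 0.059 after adjustment, so that this design could hardly pass.

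The genes whose centred levels were most like the mean of the 10 chemokines, over 16 libraries and 18217 other genes, were Csrnp1 (r = 0.989), Ifrd1 (0.983), Id2 (0.98), Casp4 (0.977) and Ccrl2 (0.971). For Ccl3 they were Ccrl2 (0.984), Csrnp1 (0.978) and Osm (0.977), for Ccl4 Marcksl1 (0.98), Rasgef1b (0.979) and Nfkbia (0.974), and for Ccl2 Csrnp1 (0.978), Egr2 (0.976) and Zfand5 (0.963). Among the Ccr2 ligands, Ccl7 was closest to a gene listed by identifier alone (0.932), Gm15569 (0.929) and Pim1 (0.928), and Ccl12 to Plk3 (0.947), Egr1 (0.945) and a gene listed by identifier alone (0.942). Cxcl1 was closest to Gm6054 (0.932), Sbno2 (0.89) and Atf4 (0.881), Cxcl2 to Coq10b (0.963), a gene listed by identifier alone (0.953) and Gem (0.943), and Cxcl16 to Bcl2a1d (0.943), Cd274 (0.932) and Nfe2l2 (0.931). Ccl6 was closest to Mdh2 (0.942), Smurf2 (0.937) and Ybx1 (0.92), and Ccl9 to Rab3gap2 (0.908), Nr2f6 (0.903) and Egln1 (0.883). The points share the depth and the numbering of their library, and no p is given.

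Of 25 listed chemokine receptors 17 were tested, and over both sexes 2 (11.8%) were called lower and 1 (5.88%) higher in KI, where 4.3% of all genes were called lower and 4.33% higher. The median log2 fold change of the receptors was -0.04. Ccr1 had -0.25 (FDR = 0.167), Ccr2 0.05 (FDR = 0.881) and Cxcr2 -0.09 (FDR = 0.876), and Cxcr6 did not pass the filter. Cx3cr1, the fractalkine receptor of microglia, had 0.06 (FDR = 0.516) at 2890 to 3620 CPM over all libraries.

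Called lower among the receptors was Ccrl2, an atypical receptor that binds chemerin. It had 122 to 222 CPM in WT and 41.5 to 138 CPM in KI libraries, which overlapped, and fell by 0.93 (log2, SE 0.24, FDR = 0.0206). Cxcr5 was called lower (-0.92, FDR = 0.0785) and Ackr1 higher (1.26, FDR = 0.0243), on at most 19 and 30 counts per library. In females Ccrl2 fell by 1.19 (FDR = 0.0446) and Ackr1 rose by 1.63 (FDR = 0.0506). Of all genes, 4.33% were called lower and 2.82% higher in females.

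Of 31 other chemokine ligands 14 were tested, and none was called over both sexes, with a median log2 fold change of -0.06 and 2 genes (14.3%) at an unadjusted p below 0.05, against 24.1% of all genes. Cx3cl1, the neuronal ligand of Cx3cr1, passed the FDR alone (0.44, FDR = 0.0225). Of the other 2 most abundant, the interferon-induced Cxcl10 had -0.04 (FDR = 0.928) and the platelet and macrophage ligand Pf4 0.14 (FDR = 0.457). Cxcl9, another interferon-induced ligand, ran from 0.609 to 48 CPM in WT and from 0.562 to 31.8 CPM in KI libraries, and its -0.91 was not called (SE 0.687, FDR = 0.465). In females Cxcl12 (-0.84, FDR = 0.0911) and Cxcl14 (-0.63, FDR just under the threshold of 0.1) were called lower and Cx3cl1 higher (0.52, FDR = 0.0768). Of all genes, 4.33% were called lower and 2.82% higher in females. Cxcl12 was also called higher in WT_f than in WT_m (1.31, FDR = 0.0579).

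**Figure D5:**
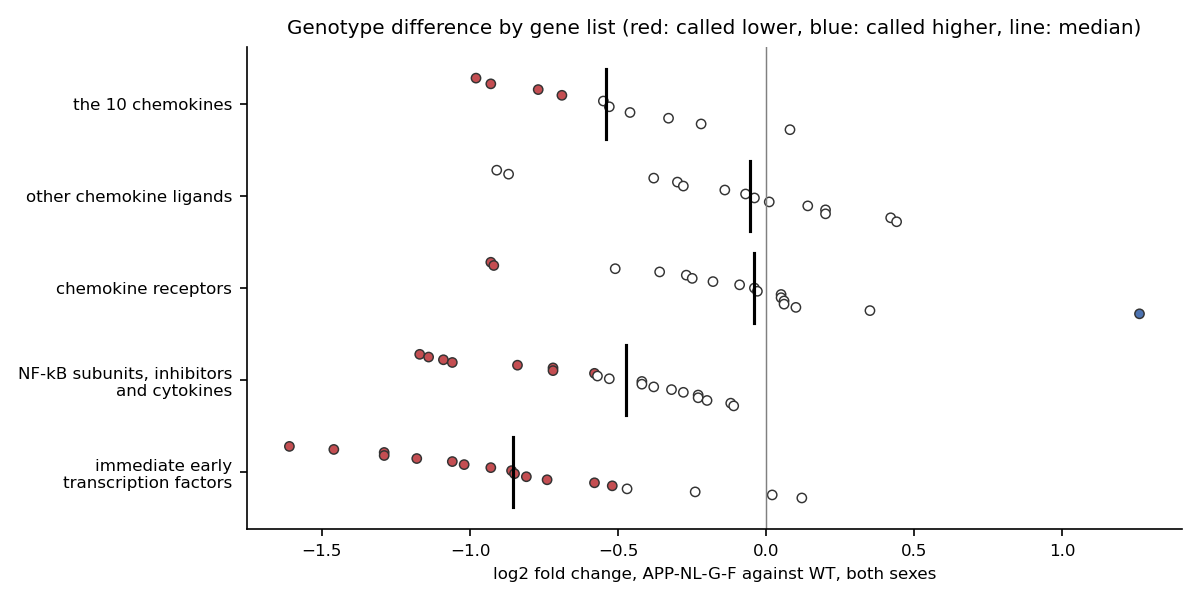
Log2 fold change over both sexes, APP-NL-G-F against WT (horizontal axis), of every tested gene of 5 lists, with red points called lower, blue points called higher and a line at each median. The 10 chemokines, the NF-kB list and the immediate early factors have medians of -0.54, -0.47 and -0.85, and the other ligands and the receptors of -0.06 and -0.04.

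Among NF-kB subunits, their inhibitors and early cytokines, 8 of 20 listed genes were called lower over both sexes and none higher. Of all genes, 4.3% were called lower and 4.33% higher. All 20 listed genes had a fold change below 0 with a median of -0.47, where 50.4% of all genes were below 0. Tnf, a cytokine that activates NF-kB, ran from 93.1 to 242 CPM in WT and from 23 to 110 CPM in KI libraries, and fell by 1.17 (log2, SE 0.32, FDR = 0.0274). Il1a fell by 0.84 (FDR = 0.046). The inhibitors and feedback genes Nfkbia (-0.72, FDR = 0.0178), Nfkbib (-0.72, FDR = 0.00162), Nfkbid (-1.06, FDR = 0.0135), Nfkbiz (-1.14, FDR = 0.0089) and Socs3 (-1.09, FDR = 0.00762) were called, and of the subunits Nfkb2 (-0.58, FDR = 0.00178). Tnfaip3, another inhibitor, had -0.53 (FDR = 0.201). In females 11 were called, against 4.33% of all genes called lower, now with Tnfaip3 (-0.97), Rel (-0.63) and Nfkbie (-0.54). In males none was, where 0.165% of all genes were called lower. There 3 (15%) had an unadjusted p below 0.05, against 11.7% of all genes.

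Immediate early transcription factors, which cells induce within minutes of a stimulus, had 14 of 18 genes called lower over both sexes and a median log2 fold change of -0.85. Fos, an AP-1 subunit, ran from 449 to 2650 CPM in WT and from 194 to 606 CPM in KI libraries and fell by 1.61 (SE 0.339, FDR = 0.006). Fosb (-1.46), Jun (-0.85), Junb (-0.81) and Jund (-0.52) of the same family were called, as were Egr1 (-1.29), Egr2 (-0.74), Egr3 (-0.93), Atf3 (-1.18), Ier2 (-1.29), Klf2 (-0.86), Klf4 (-1.02), Klf6 (-0.58) and Maff (-1.06). Fosl2 (-0.24), Nr4a1 (-0.47), Nr4a2 (0.02) and Nr4a3 (0.12) were not called. In females 14 genes of the list were called lower, against 4.33% of all genes, with Fos at -2.51 (FDR = 0.000917). In males none was, where 0.165% of all genes were called lower. There 4 (22.2%) had an unadjusted p below 0.05, against 11.7% of all genes. In WT, 6 of the 18 were called higher in females, against 0.839% of all genes. They were Fos (1.69, FDR = 0.0431), Klf4 (1.44, FDR = 0.0642), Fosb (1.58), Egr3 (0.98), Ier2 (0.9) and Jun (0.71).

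Markers of other cells that such beads can bring along were read beside these results. Over both sexes no listed gene of neutrophils (6 of 10 tested), monocytes (10) or border macrophages (11) was called. The same held for T and NK cells (3 of 10 tested), endothelial cells (10), astrocytes (10) and neurons (12). Of 8 oligodendrocyte genes 1 was called higher (Mog, 0.77, FDR = 0.0335). Of all genes, 4.3% were called lower and 4.33% higher. With the FDR alone, 5 of 12 neuron genes passed, all higher in KI (Snap25, Gad1, Gad2, Map2 and Syt1, log2 fold changes of 0.37 to 0.49), as did 3 of 8 oligodendrocyte genes, also higher (Mog, Mbp and Cnp), and 1 astrocyte gene, lower (Gfap, -0.43, FDR = 0.0651), where 14.8% of all genes passed. At an unadjusted p below 0.05 there were 6 neuron and 7 oligodendrocyte genes, against 24.1% of all genes, and the median log2 fold changes of these lists were 0.33 and 0.38. Neutrophil genes summed to 10.6 to 30.8 CPM in WT and 8.58 to 38.8 CPM in KI libraries, monocyte genes to 126 to 206 and 168 to 259 CPM, and border macrophage genes to 444 to 765 and 585 to 928 CPM. T and NK cell genes summed to 5.69 to 11.3 and 7.1 to 15.9 CPM, neuron genes to 398 to 555 and 498 to 731 CPM, and oligodendrocyte genes to 234 to 436 and 286 to 426 CPM. No listed gene of these types was at 0 in every library.

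In females 2 other cell types moved in the direction of the chemokines. Of 10 endothelial genes 7 were called lower in KI_f (median log2 fold change -0.96), against 4.33% of all genes. Of 10 astrocyte genes 3 were called lower (median -0.49). Endothelial genes summed to 107 to 235 CPM in WT_f and 91.8 to 115 CPM in KI_f. Astrocyte genes summed to 709 to 1300 and 581 to 877 CPM. In WT, 7 endothelial genes were called higher in females, against 0.839% of all genes, and the endothelial sum of WT_m was 71.3 to 85.7 CPM. In males the endothelial sum was higher in KI_m (91.8 to 129 CPM), with a median log2 fold change of 0.79. There 1 endothelial gene was called higher, against 0.0878% of all genes, while no chemokine was called in that sex. Of 12 neuron genes 2 were called higher in KI_f, against 2.82% of all genes. In males 8 endothelial, 6 neuron and 7 oligodendrocyte genes had an unadjusted p below 0.05, against 11.7% of all genes. The medians in males were 0.16 for the neuron and 0.61 for the oligodendrocyte genes. The part of these cells in the chemokine differences was not tested.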

How the data were processed

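Total RNA of CD11b bead-enriched olfactory bulb microglia was depleted of ribosomal RNA and sequenced as 16 stranded paired-end libraries. STAR was run by the authors on GRCm39, extended by human App, with GENCODE genes, and the raw counts per gene were deposited. The strand setting of the counting is not given in the sources used here.

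The filter kept genes reaching 5 counts in 50% or more of the libraries. Tests used R 4.3.3 and edgeR 4.0.16 (TMM, glmQLFit with a trended dispersion, glmQLFTest, Benjamini-Hochberg over 18227 genes), with the filter and thresholds of the study's methods. Genotype was fitted with sex as a term, and contrasts within a sex, the interaction and the sexes in WT came from a fit of the 4 groups. Log2 fold changes are KI minus WT, or female minus male. Each SE is the size of the log2 fold change divided by the root of its F value, and a prior count of 2 went into log2 CPM. DESeq2 1.42.0 and limma 3.58.1 were alternatives, and the fits were tested on simulated data. Permutations of a chemokine's level exchanged genotype within sex (4900 arrangements), and those of correlations drew 100000 resamples.

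Named genes were the 10 chemokines, every called gene and the 3 most abundant of 4 related lists, receptors of the ligands and the genes of highest correlation. Marker genes of other cells that passed the FDR over both sexes were named in addition, after their values were seen. Values of 1 receptor were left out here. The members and lists were chosen with earlier results of these data known. Positions and exonic lengths came from a GENCODE annotation of GRCm39 and promoters from RefSeq (GRCm38.p6). Depth of 9052932 to 18117286 counts limits the precision of genes with few counts.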

Additional observations from a re-analysis of the deposited data

Results flagged for a closer look

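In 3 of the 40 sets of 4 libraries (10 chemokines in 4 groups), 1 library stood apart from the other 3 by Dixon's ratio, the gap to its nearest neighbour over the whole range, at its 95% critical value. Chance gives about 2 such sets in 40. Ccl4 in KI_f replicate 4 was high at 334.3 CPM against 170.3 to 195.9 CPM (ratio 0.844), and this library alone made the females overlap. Ccl2 in WT_m replicate 3 was high at 95.82 CPM against 72.12 to 74.92 CPM (ratio 0.882). In the same library Ccl9 was low at 66.91 CPM against 81.12 to 83.29 CPM (ratio 0.868).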

How the results depend on the processing

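The number of chemokines called over both sexes, 4, was again 4 with RLE normalisation, DESeq2, a minimum of 10 counts, no sex term and the number set (libraries 1 to 8 or 9 to 16) as a term, 6 with limma voom, with no filter or with the FDR alone, 3 at an FDR of 0.05, and 3 to 6 without 1 library. It was 7 in libraries 1 to 8 alone and 0 in libraries 9 to 16 alone, each with 8 of the 16 libraries. Ccl3, Ccl4 and Cxcl1 were called without any 1 library, while Ccl2 was lost without WT_f replicate 1, 3 or 4, WT_m replicate 3, KI_f replicate 1, 2 or 3, or KI_m replicate 1 or 2. In females the 7 called became 4 at an FDR of 0.05 and 3 to 7 without 1 library. It was 3 without KI_f replicate 1 or 3 and 4 without KI_f replicate 2 or WT_f replicate 3. With no filter, or with females fitted alone, Cxcl2 was called in females as well. In males the 0 called became 2 with no filter and 1 (Ccl3) with the number set as a term, and stayed 0 without any 1 library. With no filter, 5 were called in the interaction and 2 between the sexes in WT. Over all genes, that setting raised the number called lower from 5 to 339 in the interaction. Between the sexes in WT it raised that number from 18 to 280. The cause of the changes with no filter was not tested.

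Values near 0 changed sign. In males Ccl7 (0.06) and Cxcl2 (0.13) were -0.09 and -0.19 with limma voom, -0.03 and -0.13 with the replicate block, and -0.01 and -0.11 with the number set as a term. Without 1 library they ran from -0.28 to 0.29 and from -0.36 to 0.42, and Ccl12 (-0.01) from -0.53 to 0.22, with 0 under no filter. Ccl6 in females (0.03) ran from -0.03 to 0.12 without 1 library, and over both sexes (0.08) -0.04 in libraries 1 to 8. Cxcl2 over both sexes (-0.33) was 0.01 in libraries 9 to 16. With levels centred on the number set too, the 12 correlated pairs became 0, and 6 weak correlations turned negative: Ccl6 with Ccl7 (-0.03) and Ccl12 (-0.11), and Ccl9 with Ccl7 (-0.11), Ccl12 (-0.06), Cxcl1 (-0.02) and Cxcl2 (-0.11).

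The number set separates replicates 1 and 2 from replicates 3 and 4, so that the replicate block includes it. Libraries of different groups share replicate numbers. Their deviations from the group means had r of -0.33 to 0.292 over 24 pairs of equal number (median 0.0339, 8 above 0.1). Since not every pair was above 0.1, the numbers were not taken as a pairing, although 8 of 16 libraries correlated best with one of their own number, where 4 would without any pairing. The replicate block left the number of chemokines called at 4 over both sexes, 7 in females and 0 in males, in the interaction and between the sexes. Over all genes, the number called lower in males was 30, against 1 with males fitted alone and 448 with no filter. It was 3 at an FDR of 0.05, 186 by DESeq2, 65 by limma voom and 105 with the number set as a term. Over both sexes the 784 genes called lower were 1426 with the FDR alone and 57 in libraries 9 to 16. Few counts limit Cxcl1, and 4 libraries per group limit the interaction.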
